A study of Mus musculus with 4 samples.

Results

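The 6 clock-associated miRNAs of brain and retina, mmu-miR-132, mmu-miR-212, mmu-miR-219, mmu-miR-96, mmu-miR-182 and mmu-miR-183, were examined in mouse liver, and miR-212 alone gave a signal well above background on all 4 arrays. The members were the 6 miRNAs of these exact names among the 611 mouse miRNAs of the array. Star strands, the less abundant arms of the same hairpins, were left out. The miRNAs were chosen for being known as rhythmic or light-regulated in the suprachiasmatic nucleus (SCN) or the retina.

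Liver RNA came from male mice of 6 to 8 weeks of age, which were either wild type (WT) or carried the Clock△19 mutation (*Clock* mutant). The strain background and the origin of the WT mice are not given in the sources used here. All mice were caged singly with free food and water under 12 h of light and 12 h of dark for 2 weeks, with no drug or other treatment. They were killed at zeitgeber time 2 (ZT2), 2 h after lights on, or at ZT14, 14 h after lights on and so 2 h into the dark phase. The RNA of 3 mice of a genotype and time point was mixed and hybridized to 1 Agilent miRNA array, which gave 4 arrays, a WT and a mutant one at ZT2 and a WT and a mutant one at ZT14. No condition therefore had a replicate, and the 3 mice of a pool cannot be told apart. The mutation is carried in all tissues, so differences between genotypes need not arise in the liver.

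CLOCK and BMAL1 drive the transcription of their own repressors, the Period and Cryptochrome genes, and this feedback loop runs in the SCN, the retina and the liver. A miRNA pairs through its seed, bases 2 to 8 from the 5′ end, with messenger RNAs and lowers their output, which adds a layer of control after transcription. In the SCN, miR-132 is induced by light through CREB and modulates the response of the clock to light, and its relative miR-212 is made from the same gene. The expression of miR-219 follows a CLOCK-driven rhythm in the SCN and was linked to the length of the circadian period. The miR-183, miR-96 and miR-182 cluster is abundant in photoreceptors and other sensory cells, responds to light in the retina, and includes miRNAs that target *Adcy6*, an adenylate cyclase. These roles come from brain and retina. Liver is a peripheral oscillator whose defining miRNA, miR-122, is made by hepatocytes.

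The mature sequences show which members could share targets, and therefore which members can be read as one family. They are RefSeq sequences of the mouse build GRCm38.p6, printed 5′ to 3′ with the seed in capitals, and all 6 members had an entry. The array names give no arm for these miRNAs, and the arm was taken as the main strand of current nomenclature, since the array files used here list no probe sequence.
mmu-miR-132-3p: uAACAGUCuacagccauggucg
mmu-miR-212-3p: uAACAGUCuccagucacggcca
mmu-miR-219a-5p: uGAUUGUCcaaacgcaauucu
mmu-miR-96-5p: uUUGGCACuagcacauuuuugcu
mmu-miR-182-5p: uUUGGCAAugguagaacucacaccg
mmu-miR-183-5p: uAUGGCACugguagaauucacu

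The miR-132 and miR-212 sequences had the same seed, 7 of 7 positions, and were identical at 17 of 22 positions overall. Among the 1679 mature mouse miRNAs of the RefSeq table, no other miRNA carried that seed. The miR-96 seed differed from those of miR-182 and miR-183 at 1 position each (6 of 7 identical), whereas miR-182 and miR-183 shared 5 of 7 seed positions but 18 of 22 positions overall. The miR-96 seed was also that of miR-1271-5p. The seeds of miR-219, miR-182 and miR-183 occurred in no other mature miRNA of the table.

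In the genome, miR-132 lies at chr11:75173723-75173744 and miR-212 at chr11:75173443-75173464, both on the plus strand. Their hairpins are 203 bases apart and overlap no other annotated gene. The sensory cluster lies on the minus strand of chromosome 6, with miR-182 at chr6:30165962-30165986, miR-96 at chr6:30169506-30169528 and miR-183 at chr6:30169711-30169732. The 3 hairpins span 3820 bases, and all 3 lie inside the long non-coding RNA gene *Mirc35hg*. The mature miR-219 sequence is encoded at 2 places, chr17:34025052-34025072 and chr2:29845689-29845709, both on the minus strand. The first hairpin overlaps *Mir219c*, and the second overlaps *Mir219b* and the protein-coding gene *Cercam*. The array measured the mature product and could not assign miR-219 to either copy.

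Across the 4 arrays, 138 to 193 of the 611 mouse miRNAs were called detected, 123 on all arrays and 195 on at least 1. A miRNA was called detected by the scanner software when the total signal of at least 1 of its probes exceeded 3 times its error. Each member had 2 probes with 10 spots each. Signals are background-subtracted fluorescence intensities, which can be negative, and negative control spots averaged between 5.24 and 9.72 units. The arrays differed in overall brightness: the 75th percentile over the 123 miRNAs was 537 units in WT at ZT2, 503 in the mutant at ZT2, 339.9 in WT at ZT14 and 536 in the mutant at ZT14. Signals were divided by that percentile before arrays were compared. Liver identity was plain on all arrays, with 4 of 4 hepatocyte miRNAs detected and a summed scaled signal of 99.0 to 125.

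Presence differed sharply among the 6 members. One (miR-212) was detected on 4 arrays, miR-96 on 3, miR-219 on 1, and 3 members (miR-132, miR-182 and miR-183) on none. The plot of spot signals before scaling shows this order, with miR-212 far above the negative controls, miR-96 and miR-219 near them, and the other members at or below them.

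**Figure D1:**
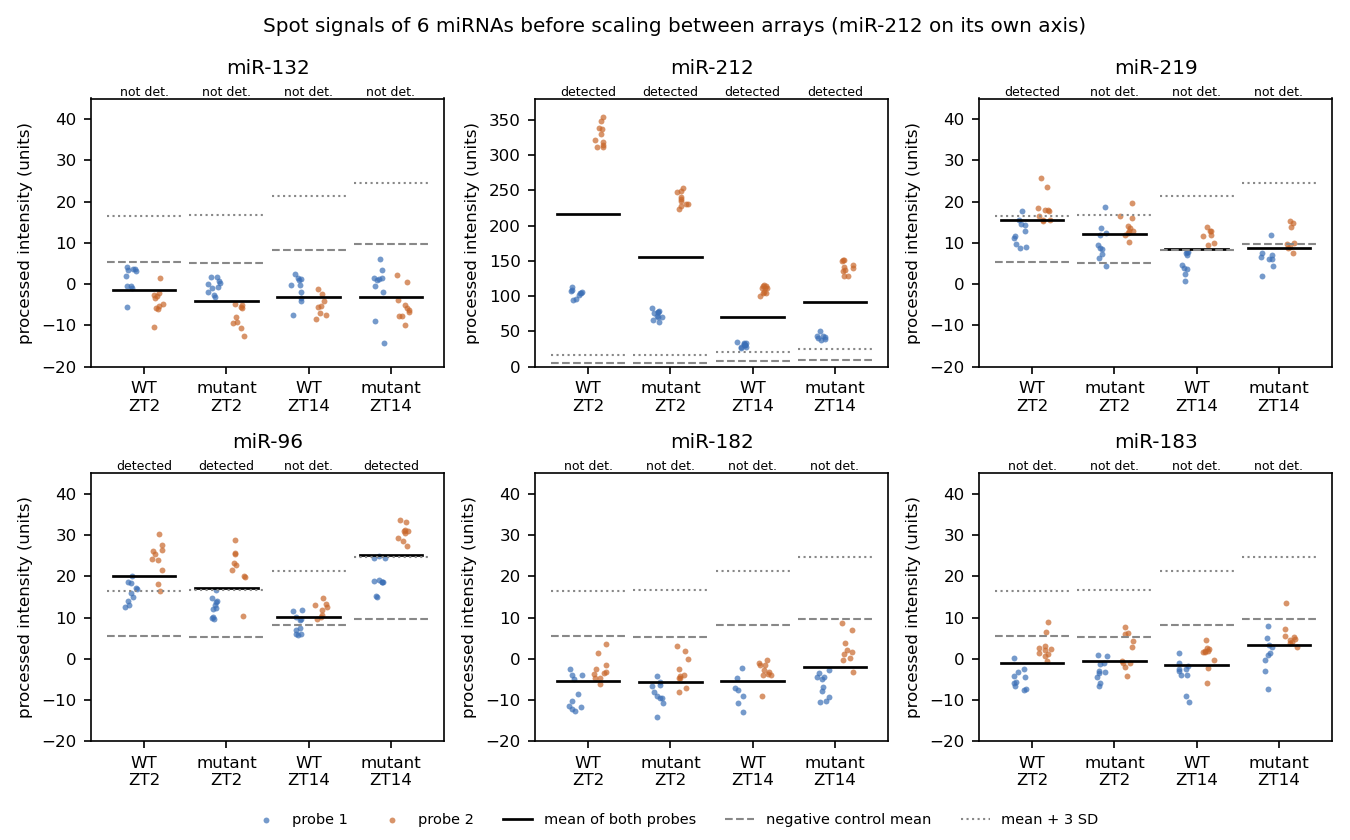
Background-subtracted signal (units, linear axis) of every spot kept for the 6 miRNAs on the 4 arrays, with 2 probes of 10 spots per miRNA before outlier spots were left out. Black bars are the mean of both probes, dashed lines the negative control mean of each array and dotted lines that mean plus 3 SD; the means of miR-212 lie between 70.2 and 216 units on an axis of its own, and those of the other members at 25.2 units or less.

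The shared-seed pair of the light-response locus split, with one member detected throughout and the other on no array. Mean signals of miR-212, whose seed is that of miR-132, were 216 units in WT at ZT2, 155 in the mutant at ZT2, 70.2 in WT at ZT14 and 91.6 in the mutant at ZT14. All 20 spots were called well above background on each array, and the better probe stood at 9.15 to 9.90 times its error. Mean signals of miR-132 were -1.45, -4.16, -3.12 and -3.06 units on the same arrays. All 4 values lie below the negative control mean, no spot kept on any array reached that mean, and the better probe never exceeded 0.289 times its error. Both miRNAs are made from one locus. Probes differ in how well they bind, so their signals were not set against each other. The negative control mean plus 3 SD lay at 16.5 to 24.6 units. Detection rested on signal over error, and the lowest mean signal of a detected mouse miRNA was 1.99 to 3.02 units across the arrays. A miR-132 level too low to pass that rule was not detectable here, which does not show that the miRNA is absent from liver.

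The sensory cluster was likewise uneven. Mean signals of miR-96 were 20.1 units in WT at ZT2, 17.3 in the mutant at ZT2, 10.3 in WT at ZT14 and 25.2 in the mutant at ZT14. The better probe stood at 4.80, 3.87, 2.42 and 5.0 times its error, so a detection call was missing in WT at ZT14 alone. The calls were weak, with 7, 2, 0 and 9 of 20 spots well above background. Mean signals of miR-182 were -5.32, -5.66, -5.37 and -2.02 units, and those of miR-183 were -0.892, -0.423, -1.39 and 3.48 units. Neither was detected on any array, and each mean lay below that of the negative controls. The star strand of miR-183 was detected on 0 of 4 arrays. The highest of the 4 signals was in the mutant at ZT14 for miR-96, miR-182 and miR-183 alike. For miR-182 and miR-183 it stayed under the negative control mean of 9.72 units, itself the highest of the 4 arrays. Divided by the negative control mean of each array, miR-96 was highest for WT at ZT2, at 3.67. The mutant gave 3.30 at ZT2 and 2.59 at ZT14, and WT at ZT14 gave 1.23. For miR-182 and miR-183 this division could not change which array was highest. The miR-183 mean was positive in the mutant at ZT14 alone. The miR-182 means were all negative, and the least negative one was divided by the largest control mean.

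The CLOCK-linked miR-219 was at the edge of detection. Its mean signal was 15.5 units in WT at ZT2, 12.1 in the mutant at ZT2, 8.50 in WT at ZT14 and 8.81 in the mutant at ZT14. The better probe stood at 3.88, 2.59, 2.40 and 2.05 times its error. Only WT at ZT2 passed the detection rule, and there 2 of 20 spots were called well above background. Its mean on no array passed the negative control mean plus 3 SD. When at least 50% of spots had to be well above background, miR-212 remained detected on 4 arrays and every other member on 0. When the mean had to pass the negative control mean plus 3 SD, the counts were 4 arrays for miR-212, 3 for miR-96 and 0 for the other members.

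Cell types in which these miRNAs are known to be abundant left little signal in the liver RNA. Of 10 neuronal miRNAs, the WT array at ZT2 detected 1 (miR-137) and the other arrays 0; the defining neuronal miR-124 and miR-9 were detected on none. At ZT2 the value for miR-137 in the mutant, which gave no detection call, was 3.05-fold less than in WT (log2 ratio -1.61, spot SD 1.11). Its scaled signal in WT was 0.0276, near the 0.0289 of miR-219 on that array, so the call was weak. Of 5 retinal miRNAs, 0 were detected on any array. RNA of whole liver also holds blood and bile duct cells, and fewer cells of a type and less RNA per cell cannot be told apart in it.

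After scaling, miR-212 was highest in WT at ZT2, with a scaled signal of 0.403, followed by the mutant at ZT2 with 0.309, WT at ZT14 with 0.207 and the mutant at ZT14 with 0.171. Each step of this order exceeded the SD of repeated spots. From WT to mutant at ZT2 it was 0.38 on the log2 scale (spot SD 0.12), from there to WT at ZT14 0.58 (spot SD 0.15), and from there to the mutant at ZT14 0.27 (spot SD 0.16). The spots of the neighbouring arrays did not overlap for 2 of 2 probes in the first 2 steps and for 1 of 2 in the last. Repeated spots carry technical error alone and say nothing of the spread between mice. The spot SD is that of single spots, combined over the arrays compared, so the error of a mean over spots is smaller. Below, within spot error means a ratio smaller than this SD. The last step depended on scaling, since before scaling miR-212 was brighter in the mutant than in WT at ZT14.

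**Figure D2:**
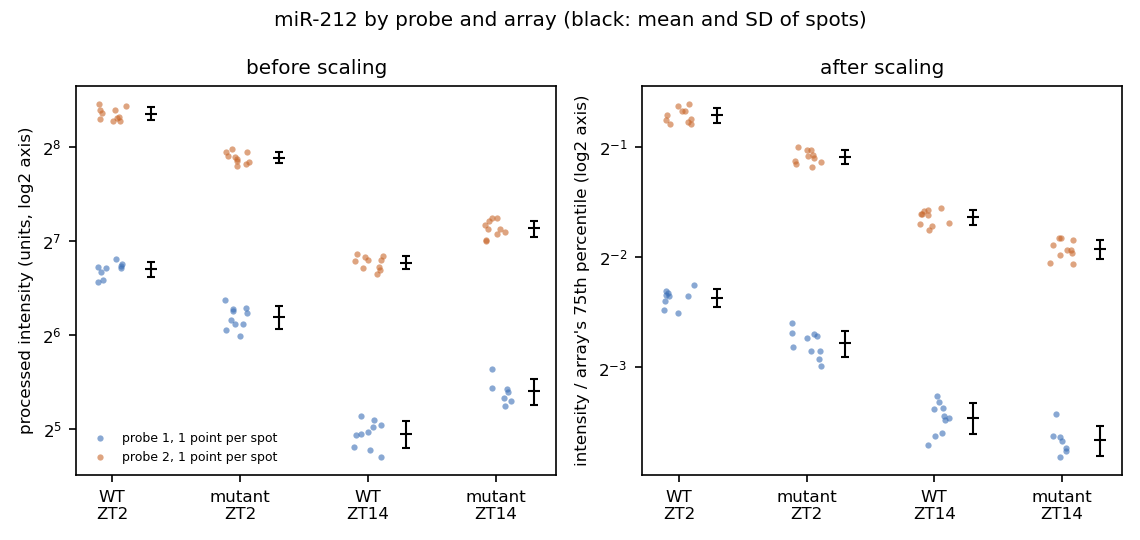
Signal of miR-212 by probe and array, before scaling (left, units) and after division by the 75th percentile of the array (right), both on log2 axes, with 1 point per spot and black marks for the mean and SD of the spots of a probe. Both probes give the order WT at ZT2, mutant at ZT2, WT at ZT14, mutant at ZT14 after scaling, and the ZT14 arrays change places before scaling.

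The comparison of time points asked whether the liver level of these miRNAs differed between the light phase and the dark phase. Scaled miR-212 was lower at ZT14 than at ZT2 in both genotypes. In WT it was 1.95-fold lower (log2 ratio -0.96, spot SD 0.13), and in the mutant it was 1.80-fold lower (log2 ratio -0.85, spot SD 0.15). Probe 1 gave -1.09 in WT and -0.88 in the mutant, and probe 2 gave -0.93 and -0.84, with no overlap of spots between time points in any of these comparisons. The arrays of these ratios are separate, so the WT and the mutant value rest on no common array. Over all miRNAs detected on both arrays the median log2 ratio was -0.12 in WT (137 miRNAs) and -0.16 in the mutant (140 miRNAs). A lower ratio than that of miR-212 was found for 4 of the 137 in WT (2.92%) and for 10 of the 140 in the mutant (7.14%). Of the 123 miRNAs detected on all arrays, 2 had a ratio of -0.85 or below in both genotypes, namely miR-212 and miR-144, a miRNA of red blood cells. That cutoff is the mutant value of miR-212 itself, which therefore passed it by construction. In both genotypes, 4 of the 123 fell at least 1.5-fold, miR-212 among them, and 76 had a ratio below 0.

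With a threshold of 2-fold, 0 members were higher and 0 lower at ZT14 in WT, beside 1.03% higher and 6.7% lower among the 194 miRNAs detected on either array. In the mutant the member counts were also 0 and 0, beside 0% higher and 13.5% lower among 163. In the additive limma fit over all 4 arrays, the difference of miR-212 between ZT14 and ZT2 was -0.91 on the log2 scale (SE 0.13). It had the smallest unadjusted p of the 123 miRNAs, 0.00221, and an adjusted p of 0.195, so that the difference did not pass 0.05 after Benjamini-Hochberg adjustment. That rank depended on the processing. Over the 123 miRNAs and without the deposited log2 table, it ran from 1 (outlier spots kept) to 12 (unscaled summed signal). No scaling and spike-in scaling gave 7, and quantile normalization gave 9. The fit called 0 of 123 miRNAs for time (0%), and 12 had an unadjusted p under 0.05. It leaves 1 residual degree of freedom, which is the difference between the time ratios of WT and mutant. The SE and p rest on that difference and on variance shared across miRNAs, and measure no spread between mice or pools. How far scaling moved these values is seen in the unscaled ratios, which were -1.62 in WT and -0.76 in the mutant, against unscaled medians of -0.78 and -0.067 for all miRNAs.

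**Figure D3:**
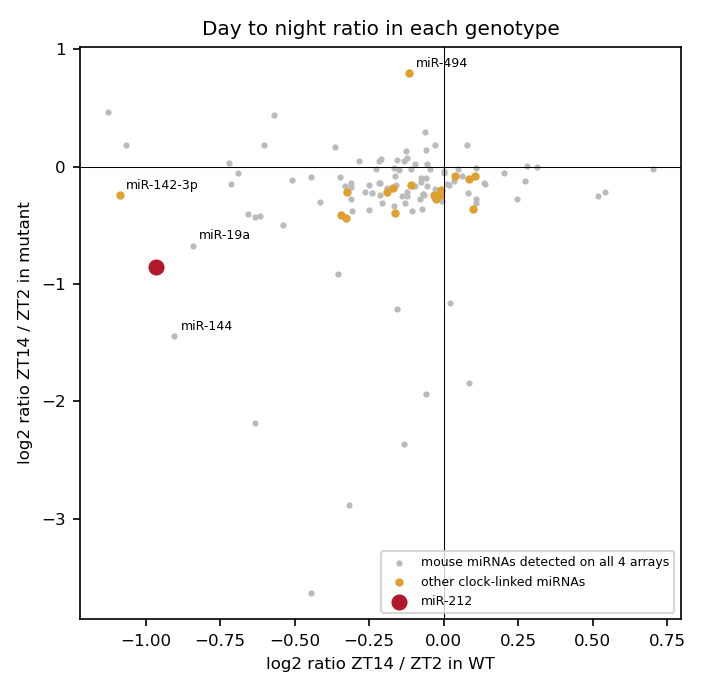
Log2 ratio of ZT14 over ZT2 in WT (horizontal axis) and in the mutant (vertical axis) for the 123 mouse miRNAs detected on all 4 arrays, 1 point per miRNA, with miR-212 in red and the other clock-linked miRNAs in orange. The red point lies at -0.96 and -0.85, away from most points, which lie near 0 on both axes.

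The time ratio of miR-212 in the mutant exceeded that in WT by 0.11 on the log2 scale, less than the SD of single spots (spot SD 0.20). With 1 array per condition this difference could not be tested, and the values do not show that the time ratios are alike in the genotypes.

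The weak members had signals near the detection limit, and their ratios had large spot errors. Scaled miR-96 was 0.0375 in WT at ZT2, 0.0344 in the mutant at ZT2, 0.0302 in WT at ZT14 and 0.0471 in the mutant at ZT14. In the mutant its log2 ratio of ZT14 over ZT2 was 0.45 (spot SD 0.37), and spots overlapped between time points for both probes. In WT, where the ZT14 array gave no detection call, the ratio of the signals was -0.31 (spot SD 0.40), within spot error, and it was -0.067 with the brightest probe alone. The order from mutant at ZT14 through WT at ZT2 and mutant at ZT2 to WT at ZT14 had steps of 0.33, 0.12 and 0.19, with spot SDs of 0.31, 0.39 and 0.44, so neighbours in it were hardly apart or not apart beyond spot error. Scaled miR-219 was 0.0289 in WT at ZT2 and 0.0250 in WT at ZT14, where it was not detected. That difference (log2 ratio -0.21, spot SD 0.62) was within spot error, and probe 2, the one that passed detection, gave 0.0344 at ZT2 and 0.0349 at ZT14. It was not detected on either mutant array, and no ratio was formed there.

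**Figure D4:**
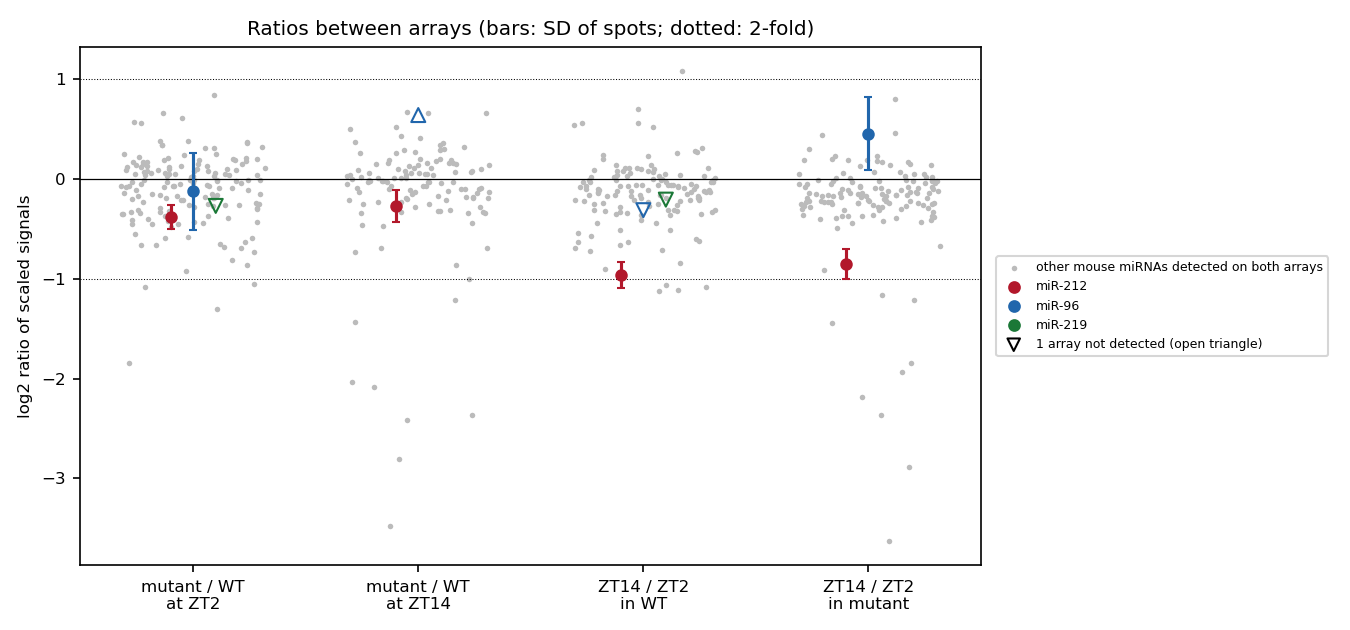
Log2 ratios of scaled signals for the 4 comparisons of 2 arrays, with grey points for the other miRNAs detected on both arrays, filled points with spot SD bars for members detected on both, and open triangles where 1 array gave no detection call and its own signal was used. The ratios of miR-212 lie below 0 in all 4 comparisons, at -0.96 and -0.85 between time points, and no member reaches the dotted 2-fold lines.

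The comparison of genotypes asked whether the members depended on an intact *Clock* gene. Scaled miR-212 was 1.31-fold lower in the mutant than in WT at ZT2 (log2 ratio -0.38, spot SD 0.12) and 1.21-fold lower at ZT14 (log2 ratio -0.27, spot SD 0.16). These values were ordinary among all miRNAs: 29 of 160 (18.1%) had a lower ratio at ZT2 and 26 of 123 (21.1%) at ZT14, around medians of -0.07 and -0.03. Without scaling the log2 ratio of miR-212 at ZT14 was 0.38, higher in the mutant, while the unscaled median over all miRNAs was 0.63. The direction at ZT14 was therefore a position relative to the other miRNAs of the array.

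Scaled miR-96 had a log2 ratio of mutant over WT of -0.12 at ZT2 (spot SD 0.39), within spot error. At ZT14, where WT gave no detection call, the ratio of the signals was 0.64 (spot SD 0.37), and it was 0.43 with the brightest probe alone. Before scaling, the spots of miR-96 at ZT14 ran from 5.74 to 11.8 units in WT and from 14.9 to 25.0 in the mutant for probe 1. For probe 2 they ran from 9.60 to 14.7 in WT and from 27.4 to 33.5 in the mutant, so the genotypes did not overlap for either probe. After scaling, the ranges of probe 1 overlapped, at 0.0169 to 0.0347 in WT and 0.0278 to 0.0466 in the mutant. Those of probe 2 stayed apart, at 0.0282 to 0.0432 in WT and 0.0512 to 0.0626 in the mutant. For miR-219 at ZT2, where the mutant gave no detection call, the ratio was -0.27 (spot SD 0.56), within spot error. No ratio could be formed for miR-132, miR-182 or miR-183 at either time point.

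At 2-fold, 0 members were higher and 0 lower in the mutant at ZT2, beside 0% higher and 8.25% lower of 194 miRNAs detected on either array. At ZT14 the member counts were also 0 and 0, beside 0% higher and 13.4% lower of 157. The additive limma fit gave miR-212 a genotype difference of -0.33 on the log2 scale (SE 0.13), with a p of 0.0612 and an adjusted p of 0.422. It called 0 of 123 miRNAs for genotype (0%), with 10 at an unadjusted p under 0.05, and miR-212 ranked 13 by p.

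The sign of the genotype difference turned with the scaling, and was 0.08 with the 75th percentile taken over all mouse miRNAs and 0.06 with spike-in scaling. With 1 array left out, 3 arrays allow 1 factor alone, so that genotype is mixed with time; the difference was then 0.15 without the WT array at ZT2, 0.10 without the mutant array at ZT14, -0.75 without the mutant array at ZT2 and -0.81 without the WT array at ZT14. The time difference of miR-212 stayed between -1.19 and -0.49 over 19 alternatives, which leave out the deposited log2 table.

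**Figure D5:**
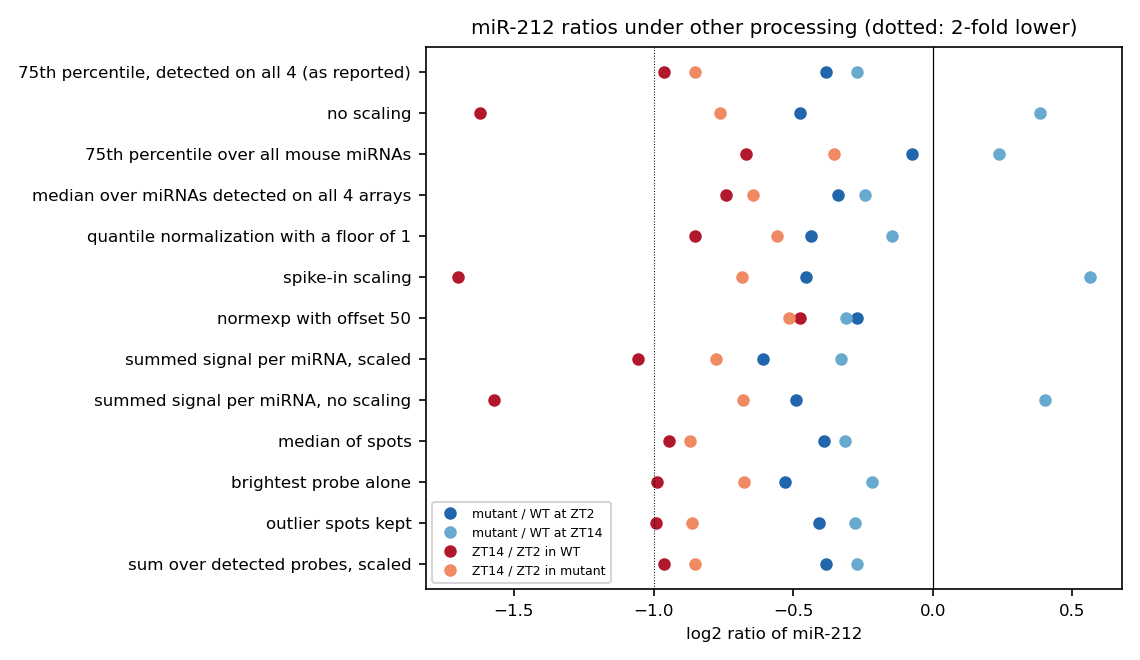
Log2 ratio of miR-212 in the 4 comparisons (colours) under the processing as reported (top row) and under 12 alternatives (other rows), with the dotted line at 2-fold lower. Both time ratios stay below 0 in every row, between -1.70 and -0.35, whereas the genotype ratio at ZT14 lies above 0 with no scaling, the unscaled summed signal, spike-in scaling and a 75th percentile over all mouse miRNAs.

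Among the other 122 miRNAs detected on all arrays, those nearest to the pattern of miR-212 over the 4 arrays were miR-19a, miR-362-3p and miR-142-3p. Likeness was the distance between log2 scaled signals centred on their mean over the arrays, which was 0.34, 0.40 and 0.45 for these miRNAs against a median of 0.89. For miR-19a, a member of the miR-17-92 cluster, the log2 time ratio stood at -0.84 in WT and -0.67 in the mutant. For miR-362-3p the same ratios were -0.62 and -0.42. For miR-142-3p, a miRNA of blood cells, they were -1.09 and -0.24, with the larger difference in WT.

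Another 24 miRNAs linked to the clock were taken for comparison, among them the liver miRNAs miR-122 and miR-192 and several reported to act on clock genes. Of these, 17 were detected on each array, against 1 of the 6 members and 123 of all 611 mouse miRNAs on all arrays. Between time points the 17 had a median log2 ratio of -0.11 in WT and -0.22 in the mutant; 1 of them, miR-142-3p, was at least 2-fold apart, in WT alone (2.12-fold lower). The values of miR-212, -0.96 and -0.85, lay below those of all 17 in the mutant, where the lowest was -0.44, and below those of 16 in WT. In the genotype comparisons the median of the 17 was 0.10 at ZT2 and -0.02 at ZT14, with ranges of -0.66 to 0.56 and -0.25 to 0.66 that held the values of miR-212 at ZT2 but not at ZT14, where miR-212 lay at -0.27. The log2 ratio of miR-122, the hepatocyte miRNA, lay between -0.18 and 0.19 in the 4 comparisons.

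Signals of other liver cell types moved with some of these values. The summed scaled signal of 6 leukocyte miRNAs was 1.40 in WT at ZT2 (4 detected), 0.883 in the mutant at ZT2, 0.736 in WT at ZT14 and 0.775 in the mutant at ZT14 (3 detected on each of these). This sum, like miR-212, was highest in WT at ZT2. Between time points, the 3 leukocyte miRNAs detected on both arrays had log2 ratios of -1.09 to -0.51 in WT, where miR-212 had -0.96, and of -0.24 to -0.11 in the mutant, where miR-212 had -0.85. In WT, miR-142-5p was at least 3.72-fold lower at ZT14. The part of leukocytes in the miR-212 values was not tested.

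The 3 red blood cell miRNAs summed to 3.32, 5.94, 2.94 and 2.55 in the same order of arrays, with 2, 3, 2 and 2 of them detected. In the mutant miR-144 had a log2 ratio of -1.45 between time points and miR-451 one of -1.21. The value for miR-486, not detected at ZT14, was 2.33-fold lower there (log2 ratio -1.22, spot SD 3.48). That SD is relative to the mean on each array, so the array without a detection call can inflate it. Whether the ratio exceeds spot error cannot be judged from it. The red cell sum was highest in the mutant at ZT2, where miR-212 was not, and the part of red cells in the miR-212 values was not tested.

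Muscle miRNAs appeared on 1 array. Of 4, 3 were detected in WT at ZT2, and 0 on the other arrays. Relative to that array, the mutant at ZT2 had at least 22.2-fold less miR-1 (log2 ratio -4.48, spot SD 1.67). The value for miR-133a was 8.40-fold less (log2 ratio -3.07, spot SD 9.85). For miR-133b it was 14.6-fold less (log2 ratio -3.87, spot SD 3.76). These SDs are relative to the mean on each array, so the array without a detection call can inflate them. Whether the ratios exceed spot error cannot be judged from them. The highest values of miR-212 and miR-219 were on that same WT array, and the part of this difference in them was not tested.

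The 5 bile duct epithelial miRNAs summed to 0.226 in WT at ZT2 (4 detected), 0.0976 in the mutant at ZT2 (2 detected), 0.0811 in WT at ZT14 (2 detected) and 0.154 in the mutant at ZT14 (3 detected). The sum was lowest in WT at ZT14, as was miR-96, and highest in WT at ZT2, where miR-96 was not. In WT, the log2 ratio between time points was -1.07 for miR-200a and -1.13 for miR-200b. At ZT2 the mutant gave no detection call for miR-141. Its value there was 3.50-fold less than in WT (log2 ratio -1.81, spot SD 7.69). The array without a detection call can inflate that SD, so whether the ratio exceeds spot error cannot be judged from it. Between genotypes at ZT14 the log2 ratio was 0.52 for miR-200a (spot SD 0.50) and 0.67 for miR-200b (spot SD 0.55), beside the miR-96 value of 0.64. The part of bile duct cells in the miR-96 values was not tested.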

How the data were processed

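The authors deposited Agilent Feature Extraction output for each of 4 miRNA arrays on 1 slide, holding linear intensity values after background subtraction, spot flags and detection calls. They also deposited a table of log2 values, with column medians of -7.51, -6.59, 0 and 0. For all 611 mouse miRNAs it equals, within 0.001, the log2 of the summed detected probes (0.1 if undetected) minus 1 number per array, so that its scale differs between arrays; it served as an alternative. The study's methods name Agi4x44PreProcess and a 2-fold threshold.

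Here, processed intensity was averaged over spots without outlier flags and over probes, scaled to the 75th percentile of the 123 miRNAs that every array detected, and log2-transformed. Where 1 array did not detect a miRNA, the higher of its own signal there and the lowest detected signal of that array was used, and the ratio is a bound only as far as spot error allows. Slide did not differ between groups. No spot was saturated, and the number of arrays limits the precision. Ratios of 2 arrays have no test. Genotype and time were fitted additively with limma 3.58.1 in R 4.3.3, after the fit was tested on simulated data. Python 3.11.15 with numpy 2.4.6 and pandas 2.3.3 did the rest. Named miRNAs were the 6 members, the 3 nearest to any member detected on all arrays, miR-122, and miRNAs of the clock-linked, hepatocyte, neuronal, retinal, bile duct, muscle, red blood cell and leukocyte lists that passed 2-fold; miR-144 in the time comparison was named after its values were seen, and miR-124, miR-9 and miR-192 were named as list examples. Members and lists were chosen with earlier results of these data known.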

Additional observations from a re-analysis of the deposited data

Results flagged for a closer look

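The ratios of miR-96 took opposite directions in parallel comparisons. Its log2 ratio of mutant over WT was -0.12 at ZT2 and 0.64 at ZT14, and its log2 ratio of ZT14 over ZT2 came to -0.31 for WT and 0.45 in the mutant. With 1 array per condition the difference between these effects was not tested. All 4 ratios come from the same 4 arrays, and the WT array at ZT14, which gave no detection call for miR-96, enters the values 0.64 and -0.31. The values -0.12 and -0.31 were within spot error.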

How the results depend on the processing

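Both time ratios of miR-212 kept their direction under every alternative other than the authors' log2 table, where they were 5.94 in WT and 5.91 in the mutant because that table subtracts other numbers from the ZT2 arrays than from the ZT14 arrays. In WT the ratio moved beyond spot error to -1.62 with no scaling, -0.67 with a percentile over all mouse miRNAs, -0.74 with the median, -1.70 with spike-in scaling, -0.47 with normexp and -1.57 with the unscaled summed signal. In the mutant it moved to -0.35 with the 75th percentile over all miRNAs, -0.65 with the median, -0.56 with quantile normalization, -0.68 with spike-in scaling, -0.51 with normexp, -0.68 with the unscaled summed signal and -0.68 with the brightest probe. The genotype ratio of miR-212 at ZT14 turned to 0.38 with no scaling, 0.24 with the 75th percentile over all miRNAs, 0.56 with spike-in scaling, 0.40 with the unscaled summed signal and 0.40 with the authors' table. At ZT2 it moved to -0.076 with the 75th percentile over all miRNAs, -0.61 with the scaled summed signal and -0.53 with the brightest probe, and turned to 0.42 in the authors' table. In limma, the genotype difference of miR-212 turned to 0.081 with the 75th percentile over all miRNAs, 0.055 with spike-in scaling and 0.41 in the authors' table. Leaving out 1 array allowed 1 factor alone, which mixes genotype with time. It gave genotype differences of -0.81 to 0.15, positive without the WT array at ZT2 (0.15) or the mutant array at ZT14 (0.10), and time differences of -1.10 to -0.72. Without the WT array at ZT14 the time difference of -1.04 had an adjusted p of 0.00108 in limma, with 1 array left at ZT14 and 13 of 123 miRNAs called lower. The time difference was 5.92 in the authors' table (adjusted p 3.62e-05), where 123 of 123 miRNAs were called higher. With all 611 mouse miRNAs in the fit, the 6 members had adjusted p of 0.257 to 0.947 for time and 0.789 to 0.819 for genotype.

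The ratio of miR-96 at ZT2 turned to 0.18 with the 75th percentile over all miRNAs, 0.23 with quantile normalization, 0.015 with normexp, 2.47 and 2.59 with the summed signal scaled and unscaled, and 0.028 in the authors' table. Its time ratio in the mutant turned to -2.29 and -2.20 with the summed signal, and the WT time ratio of miR-219 to 0.54 in the authors' table. The summed signal of the scanner matched the sum of detected probes within 1% for 103 to 147 miRNAs per array and not for miR-96 in the mutant at ZT2 or miR-219 in WT at ZT2. The number of members at least 2-fold apart was 0 as reported. At ZT2 between genotypes it was 2 with the summed signal, scaled or not, and 1 with the authors' table or the sum over detected probes (a setting added once the data had been seen). At ZT14 between genotypes it was 1 at 1.5-fold and with no scaling, the 75th percentile over all miRNAs, quantile normalization, spike-in scaling, the unscaled summed signal, the authors' table and the sum over detected probes. Between time points in WT it was 1 at 1.5-fold, with no scaling, the authors' table or the sum over detected probes, 2 with spike-in scaling or the scaled summed signal, and 3 with the unscaled summed signal. In the mutant it was 1 at 1.5-fold, with either summed signal or the sum over detected probes, and 2 in the authors' table. Values of weak members also moved beyond spot error without turning: miR-96 between genotypes at ZT14 in 7 settings (1.11 to 8.49) and at ZT2 in 1 (-0.78), its time ratio in WT in 5 (-1.75 to -0.80) and in the mutant in 3 (0.95 to 7.87), miR-219 at ZT2 in 4 (-6.05 to -1.03) and between time points in WT in 4 (-4.88 to -0.87). In all, 163 values stayed within spot error, within 1.5 times the count or on their side of the threshold, 67 moved, 23 turned and 1 newly passed the threshold. Requiring spots well above background left 0 arrays for miR-219 and 0 for miR-96, and the negative control limit left 0 for miR-219. That requirement, and several scalings for miR-219, gave no ratio for the weak members. No paired analysis was possible because no condition has more than 1 array and no label pairs mice across conditions. With 1 pool per condition, ratios within the spread between mice cannot be told from differences of genotype or time, and signals under 16.5 to 24.6 units lie within 3 SD of the negative controls.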
